A study of Homo sapiens with 4 samples.

Results

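Protein acylation enzymes attach fatty acids to proteins or take them off again. The set described here held 34 protein-coding genes of the 48162 genes listed, of which 20312 were protein-coding. It consisted of the 24 genes whose symbol starts with ZDHHC and of 10 further genes picked by name, namely LYPLA1, LYPLA2, PPT2, ABHD10, ABHD13, HHAT, PORCN, MBOAT4, NMT1 and NMT2. A further 7 ZDHHC-named rows of other gene types were left out. The choice was written in gene symbols and gene types, with no cut on expression values, but earlier results of these data were known when it was made.

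RNA was sequenced from MDA-MB-231 cells, a human triple-negative breast cancer line, after 24 h with vehicle control (2 libraries) or with MGH-CP1 (2 libraries), a small molecule that blocks the palmitoylation of TEAD transcription factors. The sample labels give 10 µM MGH-CP1, whereas the study's methods give the same number in mM. All 4 libraries came from this 1 line in DMEM with serum and antibiotics, and since no source states that replicates were separate cultures, p-values measure the spread between these libraries, which may be technical. Levels are FPKM, fragments scaled by gene length and by the library's sum of fragments on genes, so that genes can be compared per length.

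Sums of fragments over genes were 25455533 and 25508824 for vehicle control but 17997221 and 17577930 for MGH-CP1, so that treated values rest on fewer fragments. Mitochondrially encoded genes took 0.418% and 0.447% of fragments in vehicle control and 1.53% and 1.57% after MGH-CP1. Of the line's markers, VIM (259 to 281 FPKM) and CD44 (198 to 221 FPKM) were high and not called. AXL and CAV1, the other mesenchymal markers tested, were abundant and fell after MGH-CP1, AXL at 274 and 293 FPKM against 149 and 187 (log2 fold change -0.76, limma adjusted p = 0.000425) and CAV1 at 385 and 389 against 272 and 278 (log2 fold change -0.49, limma adjusted p = 0.0001). ESR1 and PGR were at most 0.0243 FPKM, while SPARC was near 0 (0.0751 to 0.117 FPKM) and EPCAM (12.4 to 16.4 FPKM) and GATA3 (4.17 to 5.65 FPKM) were present. ALB, a hepatocyte gene, had 0 and 0 fragments in vehicle control and 3 and 102 in the MGH-CP1 libraries, so that MGH-CP1 replicate 2 stood apart on this gene, and the leukocyte marker PTPRC reached at most 0.0321 FPKM. Depth and the mitochondrial share were each varied in an alternative fit, with the counts given at the end. The part of the other differences in the results was not tested.

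ZDHHC enzymes are multi-pass membrane proteins that carry palmitate from palmitoyl-CoA to cysteines of other proteins through a DHHC motif, and the bond is cut again by thioesterases such as LYPLA1 and LYPLA2, also known as APT1 and APT2. N-myristoyltransferases add myristate to an N-terminal glycine, a lasting mark, and the membrane-bound O-acyltransferases PORCN, HHAT and MBOAT4 lipidate secreted Wnt, Hedgehog and ghrelin proteins. TEAD proteins are known to bind palmitoyl-CoA and to attach palmitate to their own cysteine, so the enzymes below are not the reported target of MGH-CP1, and the comparison asks how their mRNAs stood when TEAD palmitoylation was blocked.

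Of the 34 genes, 27 had a mean of at least 1 FPKM over the 4 libraries and were tested with limma on log2(FPKM + 1), two-sided, each p being adjusted by the Benjamini-Hochberg method across the 12080 genes that entered the fit. At an adjusted p under 0.05, 15 genes were called. After MGH-CP1, 7 were higher (PPT2, PORCN, LYPLA2, ZDHHC1, ZDHHC24, ZDHHC8 and ZDHHC17) and 8 were lower (NMT2, ABHD10, ZDHHC6, LYPLA1, ZDHHC2, ZDHHC5, ZDHHC16 and NMT1). These 15 were 55.6% of the enzymes tested, against 50.8% of all genes tested. The 7 higher genes were 25.9% of the enzymes against a background of 27.1%, and the 8 lower genes 29.6% against 23.8%. These shares were near those of all genes and are no result about the enzymes as a set. With median-ratio scaling of the libraries the calls were 5 higher and 9 lower, and 51.9% of the enzymes were called against 52.1% of all genes. Under this scaling the share of calls that were higher went from 46.7% to 35.7% in the enzymes. In all genes tested it went from 53.3% to 44.7%.

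The median log2 fold change of the enzymes was -0.03 (SD 0.04 over the 4 ways to set 1 treated library against 1 control), beside 0.01 for all genes tested. Differences ran from -0.42 for NMT2 to 0.46 for PPT2. A difference of 0.3 or more was seen in 6 enzymes, all of them called (PPT2, PORCN, LYPLA2, ZDHHC1 and ZDHHC24 higher, NMT2 lower), which is 22.2% of the enzymes tested against 37.3% of all genes tested. None reached 0.5, as 16.8% of all genes did, although PPT2 came to 0.505 with a pseudocount of 0.1 in place of 1 and to 0.511 with limma voom. The libraries of the 2 conditions did not overlap for 19 enzymes (70.4%), against 77.2% of all genes tested. Of these, 8 were higher and 11 lower after MGH-CP1, where 39.8% and 37.4% of all genes tested were.

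Leaving out 1 library at a time kept the calls of LYPLA2, PPT2, PORCN, NMT2, ZDHHC1, ZDHHC24 and ZDHHC6, 7 of the 15, whichever of the 4 libraries was left out. The other 8 lost the call in at least 1 case, so that without MGH-CP1 replicate 1 there were 5 higher and 2 lower (25.9% of the enzymes against 39.0% of all genes), and without MGH-CP1 replicate 2 there were 5 and 4 (33.3% against 43.4%). Without vehicle control replicate 1 there were 5 and 5 (37.0% against 40.9%), and without vehicle control replicate 2 there were 7 and 7 (51.9% against 45.7%). ZDHHC17 lost its call in all 4 cases, and ABHD10 and ZDHHC5 lost theirs only without MGH-CP1 replicate 1. LYPLA1, ZDHHC2, ZDHHC8 and ZDHHC16 lost theirs without vehicle control replicate 1, and these and NMT1 lost theirs when either of the MGH-CP1 libraries was left out. NMT1 also lost its call without vehicle control replicate 2. In bulk RNA, a change in each cell and a change in the share of cells that express a gene cannot be told apart.

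**Figure D1:**
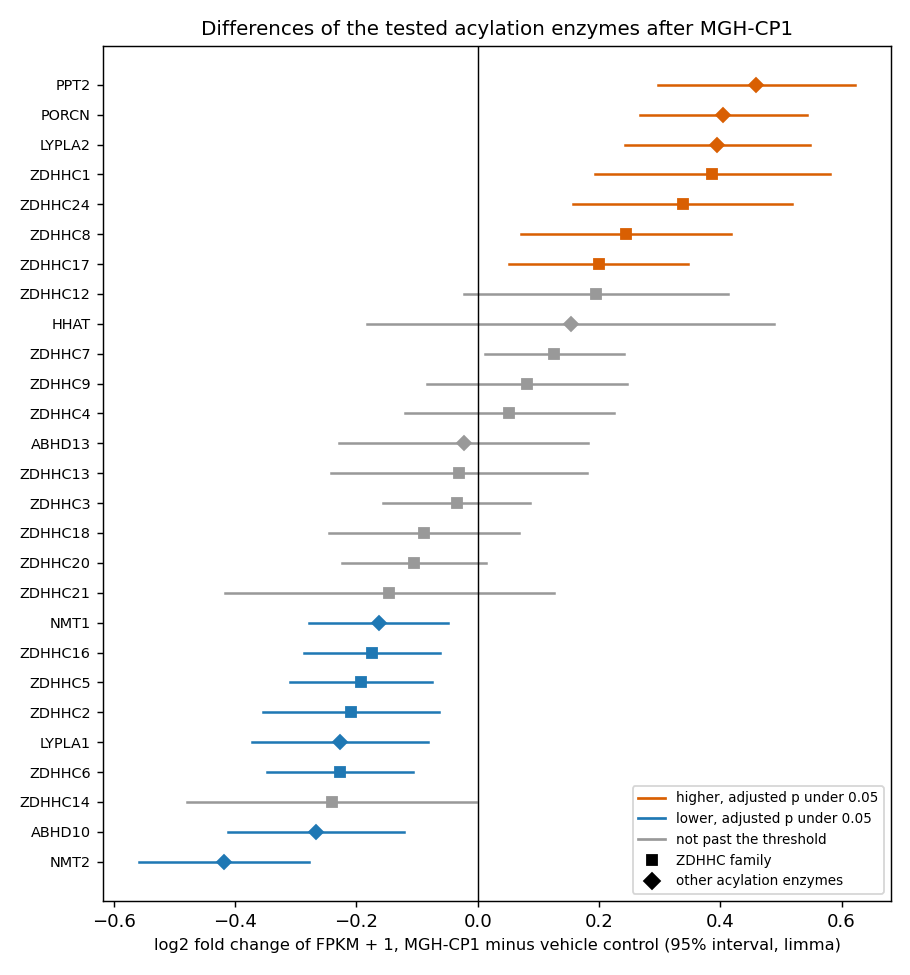
Log2 fold change of FPKM + 1 (MGH-CP1 minus vehicle control, x axis) of the 27 enzymes tested, with the 95% interval from limma; squares are ZDHHC genes and diamonds the others, and colour marks the 7 called higher and the 8 called lower. The points run from -0.42 (NMT2) to 0.46 (PPT2) with no shift of the whole set to either side.

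In the group of depalmitoylases and other hydrolases, 2 genes rose, 2 fell and 1 was not called. These were 40.0% and 40.0% of the 5 genes, beside 27.1% higher and 23.8% lower among all genes tested. LYPLA2 (ENSG00000011009, chromosome 1, 24117460 to 24122029, plus strand, hg19) encodes the cytosolic thioesterase APT2, which is known to depalmitoylate many membrane proteins. It measured 39.2 and 44.7 FPKM in vehicle control and 56.1 and 54.6 after MGH-CP1, higher in both treated libraries than in either control. The rise was 1.32-fold in mean FPKM, with a log2 fold change of 0.39 (SE 0.07, limma adjusted p = 0.0017). Its paralog LYPLA1 (ENSG00000120992, chromosome 8, 54958938 to 55014577, minus strand), which encodes APT1, stood at 30.3 and 27.3 FPKM in vehicle control and at 24.5 and 24.3 after MGH-CP1. Both treated libraries were below both controls, by a log2 difference of -0.23 (SE 0.06, limma adjusted p = 0.0172).

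The pair thus moved in opposite directions. The ratio of LYPLA2 to LYPLA1 in FPKM was 1.30 and 1.64 in vehicle control, and after MGH-CP1 it was 2.29 and 2.25, with no overlap. For a single value such as this ratio, an exact two-sided permutation test of 2 libraries against 2 cannot go below p = 0.333.

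PPT2 (ENSG00000221988, chromosome 6, 32121218 to 32131455, plus strand, hg19) encodes a lysosomal thioesterase. Its level was 7.35 and 7.69 FPKM in vehicle control and 11.1 and 10.3 after MGH-CP1, the largest difference among the enzymes tested, at 1.43-fold (log2 fold change 0.46, SE 0.07, limma adjusted p = 0.00109). The groups did not overlap. PPT2 shares 933 bases with PRRT1 on the other strand, which measured 0.438 and 0.761 FPKM in vehicle control and 1.70 and 1.55 after MGH-CP1. On the strand of PPT2, 9834 bases of its 10.238 kb span are shared with the row ENSG00000258388, listed under the symbol EGFL8. That row measured 0.0376 and 0.0938 FPKM in vehicle control against 0.146 and 0.313. Whether the libraries keep strand is not stated, so reads of opposite genes cannot be told apart. The split of reads between PPT2 and the row ENSG00000258388 on its own strand is also uncertain. PRRT1 had at most 85 fragments in a library and ENSG00000258388 at most 23.

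ABHD10 (ENSG00000144827, chromosome 3, 111697857 to 111712210, plus strand) encodes a mitochondrial depalmitoylase. It fell from 17.9 and 17.2 FPKM in vehicle control to 13.9 and 14.9 after MGH-CP1, to 0.822 times the control mean (log2 fold change -0.27, SE 0.06, limma adjusted p = 0.00865). ABHD13, another member of the alpha/beta hydrolase family, measured 4.05 and 3.66 FPKM in vehicle control and 3.83 and 3.72 after MGH-CP1, with the treated values inside the range of the controls. Its log2 difference was -0.02 with a 95% interval of -0.23 to 0.18 (limma adjusted p = 0.845). Summed over these 5 genes, levels were 98.8 and 100.5 FPKM in vehicle control and 109 and 108 after MGH-CP1, so the fall of LYPLA1 and ABHD10 was smaller in FPKM than the rise of LYPLA2 and PPT2. The sum leaves out depalmitoylases outside the set, such as PPT1, which fell, and ABHD17A, which rose. It is therefore no total for depalmitoylase mRNA.

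The N-myristoyltransferases were both lower. NMT2 (ENSG00000152465, chromosome 10, 15144583 to 15210692, minus strand, hg19) measured 32.8 and 33.3 FPKM in vehicle control and 23.3 and 25.7 after MGH-CP1, the largest fall among the enzymes tested. The groups lay well apart, and the treated mean was 0.742 times the control mean (log2 fold change -0.42, SE 0.06, limma adjusted p = 0.000856). NMT1 (ENSG00000136448, chromosome 17, 43128978 to 43186384, plus strand), the other gene of this activity, measured 38.0 and 39.1 FPKM in vehicle control and 34.4 and 34.3 after MGH-CP1. Its fall was smaller, to 0.89 times the control mean (log2 fold change -0.16, SE 0.05, limma adjusted p = 0.0255).

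Together the N-myristoyltransferase mRNAs summed to 70.8 and 72.5 FPKM in vehicle control and to 57.7 and 60.0 after MGH-CP1. The ratio of NMT1 to NMT2 was 1.16 and 1.17 in vehicle control and 1.47 and 1.33 after MGH-CP1, so that NMT1 made up more of the sum in both treated libraries. NMT2 overlaps RPP38 on the other strand over 37235 bases, a gene with a mean of 5.48 FPKM and a log2 difference of -0.10 (limma adjusted p = 0.417), and NMT1 overlaps DCAKD on the other strand over 9496 bases, with a log2 difference of 0.17 (limma adjusted p = 0.0679).

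Of the O-acyltransferases that act on secreted signals, PORCN was the only one called of the 2 tested. PORCN (ENSG00000102312, chromosome X, 48367350 to 48379202, plus strand, hg19) encodes the enzyme that adds palmitoleate to Wnt proteins, a step needed for their secretion. It measured 13.1 and 13.9 FPKM in vehicle control and 18.2 and 18.2 after MGH-CP1, with the treated libraries almost equal and both above the controls. The rise was 1.35-fold (log2 fold change 0.41, SE 0.06, limma adjusted p = 0.000911).

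HHAT, which palmitoylates Hedgehog proteins, measured 2.20 and 1.83 FPKM in vehicle control and 2.82 and 1.93 after MGH-CP1. The groups overlapped, and the log2 difference of 0.15 had a 95% interval of -0.18 to 0.49 (limma adjusted p = 0.407). MBOAT4, which octanoylates ghrelin, had 1 and 0 fragments in vehicle control and 1 and 2 after MGH-CP1, and lies across LEPROTL1, a gene with a mean of 11.4 FPKM on the other strand.

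**Figure D2:**
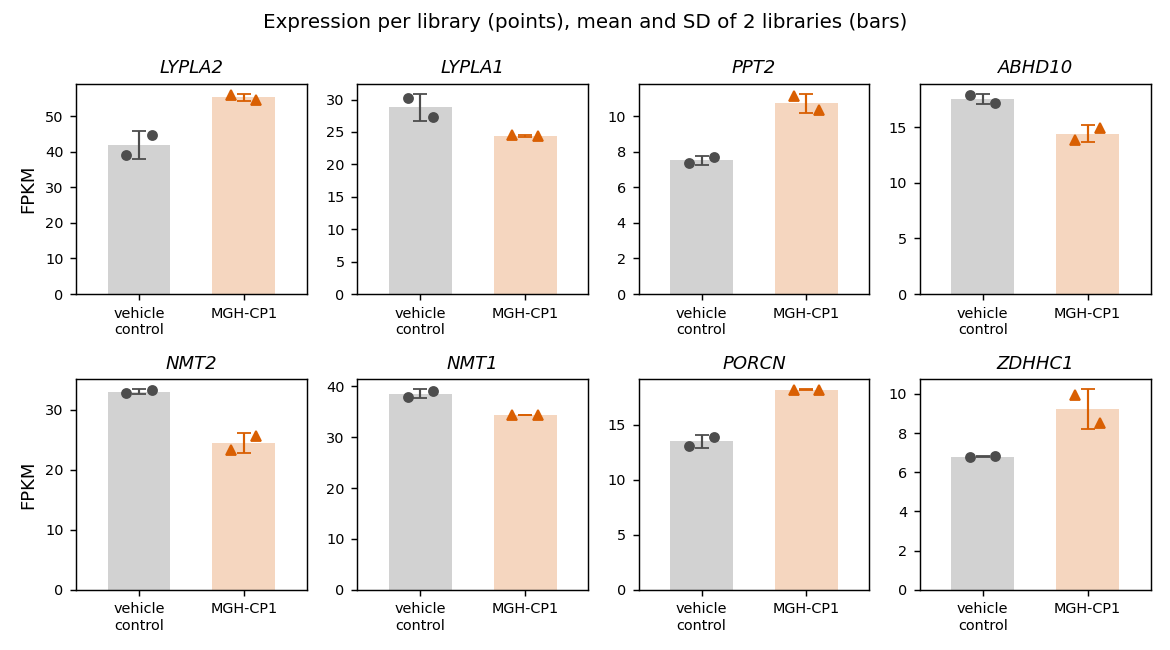
FPKM (y axis, from 0) in each library of 8 enzymes in vehicle control (circles) and after MGH-CP1 (triangles), with bars at the mean and error bars of 1 SD over 2 libraries. LYPLA2, PPT2, PORCN and ZDHHC1 have both MGH-CP1 libraries above both controls, and LYPLA1, ABHD10, NMT2 and NMT1 have both below.

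Of the 24 ZDHHC genes, 18 were tested, and 4 were higher, 4 lower and 10 not called. The called genes were 22.2% and 22.2% of those tested, beside 27.1% and 23.8% of all genes tested. The summed ZDHHC level was 315 and 314 FPKM in vehicle control and 307 and 310 after MGH-CP1, a range far narrower than that of the single genes. The most abundant per length were ZDHHC16, ZDHHC5, ZDHHC7, ZDHHC3, ZDHHC20 and ZDHHC6, which together took 65.0% and 64.8% of the summed ZDHHC FPKM in vehicle control and 61.7% and 61.4% after MGH-CP1. The least abundant of those tested was ZDHHC21, with a mean of 1.58 FPKM.

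ZDHHC16, a membrane enzyme known to palmitoylate ZDHHC6, was the most abundant. It measured 41.9 and 41.3 FPKM in vehicle control and 36.9 and 36.6 after MGH-CP1, with no overlap (log2 fold change -0.17, SE 0.05, limma adjusted p = 0.0177). ZDHHC6, an endoplasmic reticulum enzyme that works with selenoprotein K, was also lower, at 26.9 and 26.7 FPKM in vehicle control and 23.0 and 22.5 after MGH-CP1 (log2 fold change -0.23, SE 0.05, limma adjusted p = 0.00753). The selenoprotein K gene, listed as SELK, was not called, with a log2 difference of 0.12.

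ZDHHC5, which acts at the plasma membrane, measured 40.6 and 40.7 FPKM in vehicle control and 34.7 and 36.3 after MGH-CP1 (log2 fold change -0.19, SE 0.05, limma adjusted p = 0.0144). Its closest paralog ZDHHC8 was called in the other direction, at 9.94 and 11.4 FPKM in vehicle control and 12.9 and 12.7 after MGH-CP1 (log2 fold change 0.24, SE 0.08, limma adjusted p = 0.0263). The ratio of ZDHHC5 to ZDHHC8 was 4.08 and 3.58 in vehicle control and 2.69 and 2.86 after MGH-CP1, so ZDHHC5 was the more abundant in every library by a smaller margin after treatment. ZDHHC2, which palmitoylates postsynaptic and plasma membrane proteins, was the other gene called lower, from 13.3 and 12.6 FPKM to 11.01 and 11.16 (log2 fold change -0.21, limma adjusted p = 0.0243).

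ZDHHC7, a Golgi enzyme with broad substrate range, measured 32.7 and 32.5 FPKM in vehicle control and 35.3 and 36.1 after MGH-CP1. The libraries did not overlap, yet the log2 difference of 0.13 (SE 0.05) did not pass the threshold (limma adjusted p = 0.0653). Its Golgi paralog ZDHHC3 differed by -0.03 on the log2 scale, with a 95% interval of -0.16 to 0.09. ZDHHC20, known for palmitoylating the EGF receptor, differed by -0.11 (limma adjusted p = 0.123).

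The larger rises were in genes of lower level. ZDHHC1 (ENSG00000159714, chromosome 16, 67428322 to 67450736, minus strand, hg19), linked to antiviral STING signalling, measured 6.77 and 6.82 FPKM in vehicle control and 9.93 and 8.50 after MGH-CP1. It rose 1.36-fold, with more spread between the treated libraries than between the controls (log2 fold change 0.39, SE 0.08, limma adjusted p = 0.00591). ZDHHC24 (ENSG00000174165, chromosome 11, 66288108 to 66313709, minus strand) measured 7.21 and 8.24 FPKM in vehicle control and 10.1 and 9.94 after MGH-CP1, again with no overlap. Its rise was 1.30-fold (log2 fold change 0.34, SE 0.08, limma adjusted p = 0.00782), and it shares 2039 bases with a lincRNA of its own strand, CTD-3074O7.12, which differed by 0.10 (limma adjusted p = 0.319). On the other strand it shares 12991 bases with BBS1, a gene below the filter, which measured 0.0767 and 0.131 FPKM in vehicle control against 0.356 and 0.492, with at most 31 fragments in a library; its part in the ZDHHC24 value was not tested. ZDHHC17, an ankyrin-repeat enzyme known from its binding of huntingtin, rose from 9.23 and 9.02 FPKM to 10.7 and 10.6 (log2 fold change 0.20, limma adjusted p = 0.0308), while its ankyrin-repeat paralog ZDHHC13 differed by -0.03 (limma adjusted p = 0.80).

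The remaining ZDHHC genes that were tested and not called were ZDHHC4, ZDHHC9, ZDHHC12, ZDHHC14, ZDHHC18 and ZDHHC21. Their log2 differences ran from -0.24 for ZDHHC14 (limma adjusted p = 0.0843) to 0.19 for ZDHHC12 (limma adjusted p = 0.12). ZDHHC9, which palmitoylates HRAS and NRAS together with GOLGA7, differed by 0.08 with a 95% interval of -0.08 to 0.25, and GOLGA7 by -0.03 (not called).

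Below the filter were 7 genes, all of them ZDHHC genes except MBOAT4. ZDHHC15, ZDHHC19 and ZDHHC22 had 0 fragments in all 4 libraries, and 3 fragments in a library would be up to 0.0284, 0.0941 and 0.0501 FPKM, so levels under these were not detectable at this depth. ZDHHC23 had 78 and 90 fragments in vehicle control and 68 and 69 after MGH-CP1, or 0.580 and 0.668 against 0.716 and 0.743 FPKM. ZDHHC11 had 30 and 19 fragments in vehicle control and 25 and 35 after MGH-CP1, and ZDHHC11B had 0 and 0 against 3 and 1. ZDHHC11 and ZDHHC11B are near-identical copies whose listed spans share 56593 bases on 1 strand, so the split of reads between them is uncertain.

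**Figure D3:**
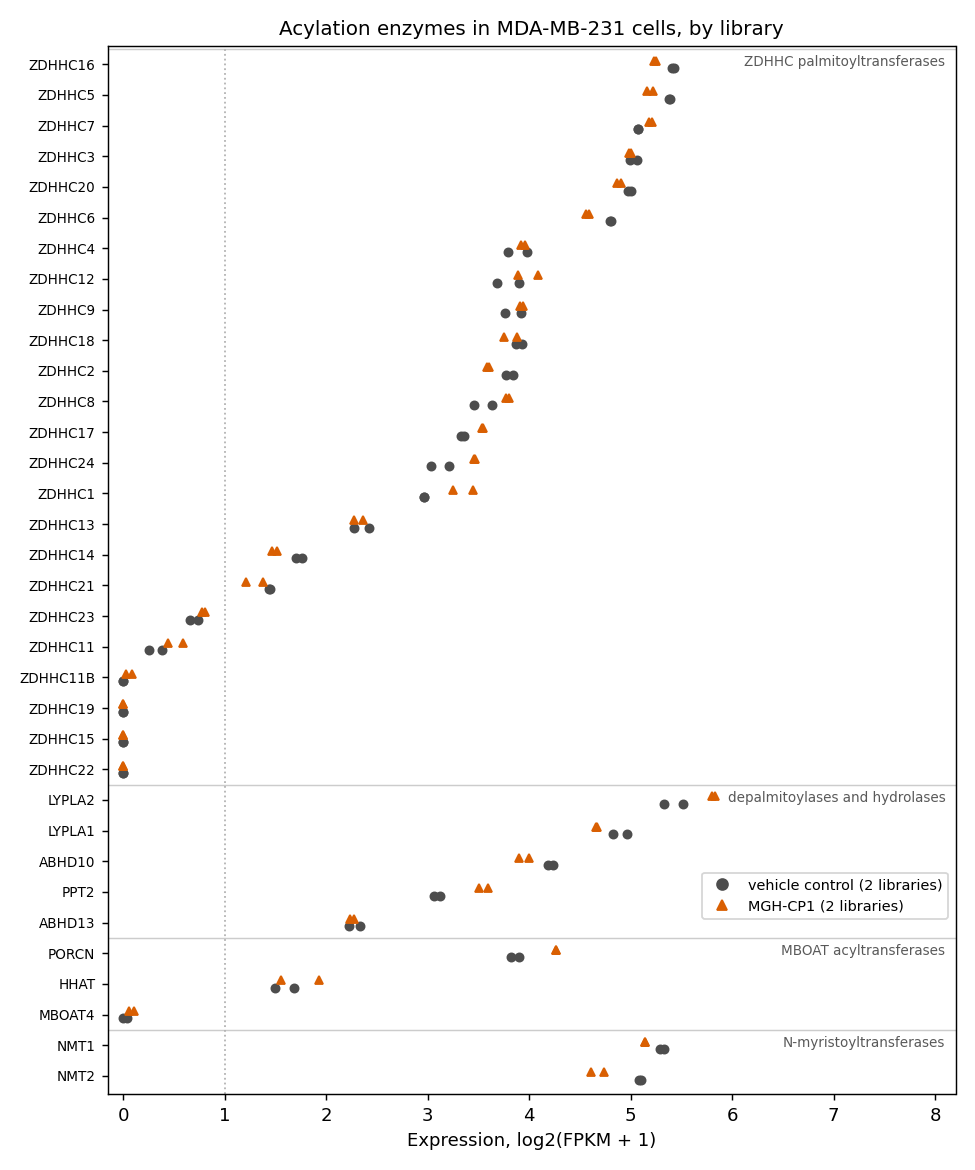
Expression of all 34 acylation enzymes as log2(FPKM + 1) (x axis) in each of the 2 vehicle control (circles) and 2 MGH-CP1 (triangles) libraries, grouped by role and ordered by level; the dotted line marks 1 on the axis, which is 1 FPKM. ZDHHC16 and ZDHHC5 head the ZDHHC group, LYPLA2 is the highest of all after MGH-CP1, and 7 genes lie at or left of the line.

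The start sites of the enzymes were searched for the TEAD core motif GGAATG on both strands, since TEAD is the factor that MGH-CP1 acts on. RefSeq promoter sequences (GRCh38.p14) were matched by symbol for 25 of the 34 genes, and the 250 bases before each start were read. Of the called enzymes, ABHD10, LYPLA1, ZDHHC2 and ZDHHC24 had no matched sequence and were not searched. The motif was present for 2 of these 25 genes (8.0%), PPT2 and ZDHHC1, against 14.3% of all 27305 genes with a promoter sequence. Both are among the genes that were higher after MGH-CP1, and a link between motif and rise was not tested. Their stretches are shown here, 30 bases each, with the motif or its reverse complement CATTCC in capitals.
PPT2: aggccttctttcCATTCCcagaatatgttt
ZDHHC1: aggaagaatctgGGAATGggccgactgggg
The PPT2 stretch is chr6:32153911-32153940 on the plus strand, 218 bases before an annotated start and, in GENCODE release 29, over exons of PPT2-EGFL8 and AL662884.4. Another PPT2 window, chr6:32153278-32153527, did not hold the motif, and the stretch lies downstream of the start that follows that window. The ZDHHC1 stretch is chr16:67416595-67416624 on the minus strand, 135 bases before the RefSeq start and in no exon of that release. Another part of the same 250 bases overlaps a ZDHHC1 exon of that release. Whether the stretch lies before every annotated ZDHHC1 start was not tested. A match of 6 letters is a description of the sequence and not a bound site.

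Genes that supply acyl groups or work beside these enzymes were read in 4 lists of 45 genes, of which 39 entered the fit. GOLGA7B reached the mean of 1 FPKM only through its MGH-CP1 libraries and was left out of the counts. Of the other 38, 12 were higher and 10 lower (31.6% and 26.3%, beside 27.1% and 23.8% of all genes). In the list for palmitoyl-CoA and acyl-CoA supply, 8 of 14 tested rose (57.1%) and 2 fell, with a median log2 fold change of 0.17. The list also holds genes that convert acyl-CoA, such as SCD, so these counts are not those of palmitoyl-CoA synthesis alone. SCD, the desaturase that makes palmitoleoyl-CoA and oleoyl-CoA, measured 135 and 136 FPKM in vehicle control and 211 and 198 after MGH-CP1 (log2 fold change 0.59, limma adjusted p = 7.19e-05). ACSL1, a long-chain acyl-CoA synthetase, measured 13.9 and 13.7 FPKM against 21.2 and 20.0 (log2 fold change 0.54, limma adjusted p = 0.000219). ACSS2, which makes acetyl-CoA from acetate, rose by 0.41 and FASN, the fatty acid synthase that makes palmitate, by 0.17 on the log2 scale (limma adjusted p = 0.00101 and 0.0309).

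The genes of this list that fell were ACSL4 and ACLY. ACSL4, an acyl-CoA synthetase that prefers polyunsaturated fatty acids, measured 40.1 and 36.6 FPKM in vehicle control and 28.3 and 30.4 after MGH-CP1 (log2 fold change -0.37, limma adjusted p = 0.00184). ACLY, which makes cytosolic acetyl-CoA from citrate, differed by -0.24 (limma adjusted p = 0.00494).

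Among the other deacylases and cofactors, 1 gene was higher and 3 were lower of the 9 tested without GOLGA7B (11.1% and 33.3%, beside 27.1% and 23.8% of all genes). PPT1, the main lysosomal palmitoyl-protein thioesterase, measured 53.4 and 51.8 FPKM in vehicle control and 42.6 and 42.5 after MGH-CP1, a fall (log2 fold change -0.30, limma adjusted p = 0.0014) where PPT2 rose. ABHD17A, a plasma membrane depalmitoylase of RAS, was higher by 0.27 (limma adjusted p = 0.00739). GOLGA7B, a partner of ZDHHC5, measured 0.652 and 0.366 FPKM in vehicle control and 1.94 and 1.49 after MGH-CP1. Only its level is read here, because it passed the filter only through the treated libraries. METAP1 and METAP2, the aminopeptidases that remove the initiator methionine and expose the glycine that NMT1 and NMT2 modify, were both lower. METAP2 measured 58.0 and 54.7 FPKM in vehicle control and 45.0 and 43.1 after MGH-CP1 (log2 fold change -0.35, limma adjusted p = 0.00106). METAP1 differed by -0.26 (limma adjusted p = 0.00806), a call lost without MGH-CP1 replicate 1.

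Of the other members of the MBOAT family, which acylate lipids, 6 were tested, with 3 higher and 2 lower (50.0% and 33.3%, beside 27.1% and 23.8% of all genes). DGAT1, which makes triglyceride, LPCAT3 and MBOAT7, which both reacylate lysophospholipids, were higher by 0.36, 0.33 and 0.28 on the log2 scale (limma adjusted p = 0.00245, 0.0023 and 0.0013). SOAT1, which esterifies cholesterol, measured 28.1 and 26.2 FPKM in vehicle control and 17.9 and 20.0 after MGH-CP1 (log2 fold change -0.50, limma adjusted p = 0.000714). MBOAT1, also an acyltransferase of lysophospholipids, differed by -0.54 (limma adjusted p = 0.00822).

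Prenylation, the other main lipid modification of cytosolic proteins, had 9 genes tested, of which limma called 0 higher and 3 lower. The 3 lower genes were 33.3%, beside 23.8% of all genes tested. At an unadjusted p under 0.05 these were 0 and 4, and limma voom on fragments also called 0 and 4. CHML, a Rab escort protein, measured 15.3 and 15.05 FPKM in vehicle control and 8.68 and 9.58 after MGH-CP1 (log2 fold change -0.68, limma adjusted p = 0.000153). ICMT, which methylates prenylated cysteines, and ZMPSTE24, which cleaves prelamin A, differed by -0.38 and -0.34 (limma adjusted p = 0.000487 and 0.00123). Of the transferase genes, PGGT1B just missed the threshold and was not called (log2 fold change -0.24, limma adjusted p = 0.0517), and FNTA, RABGGTA and RABGGTB were not called either. FNTB was below the filter, at 0.261 to 0.373 FPKM.

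**Figure D4:**
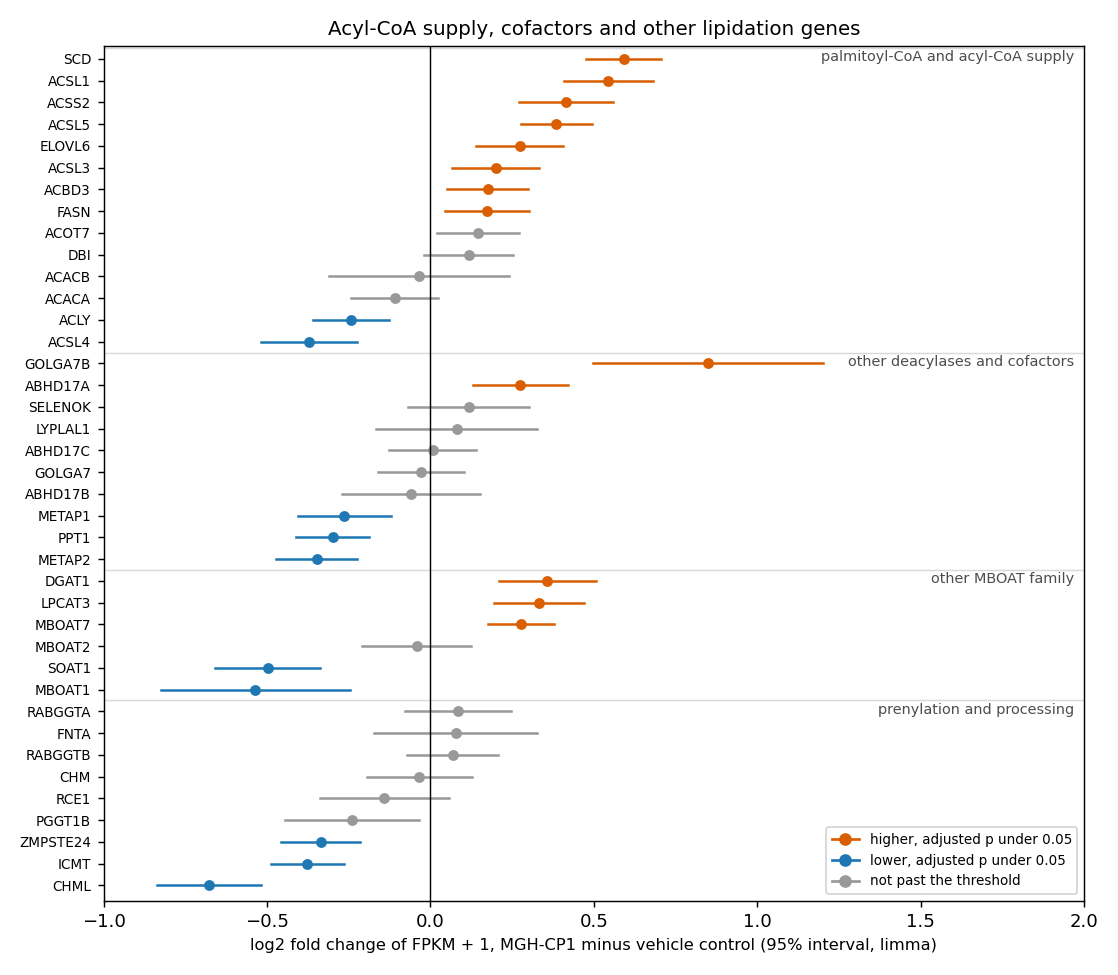
Log2 fold change of FPKM + 1 (MGH-CP1 minus vehicle control, x axis) of the 39 genes of the 4 neighbouring lists that entered the fit, with the 95% interval from limma and colour for the call. GOLGA7B is drawn, but it passed the filter only through its MGH-CP1 libraries and its call is not counted in the text. The acyl-CoA supply list has 8 of 14 genes called higher and 2 lower, with SCD at 0.59. The prenylation list has 3 of 9 called lower, with CHML at -0.68. Of all genes tested, 27.1% were called higher and 23.8% lower.

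As a check of the treatment, the TEAD target CYR61 measured 368 and 383 FPKM in vehicle control and 216 and 229 after MGH-CP1 (log2 fold change -0.75, limma adjusted p = 3.29e-05), a larger difference than that of any acylation enzyme tested. Of the palmitoylated TEAD proteins themselves, TEAD4 mRNA fell by 0.59 and TEAD1 by 0.22 on the log2 scale (limma adjusted p = 0.000501 and 0.00763), and TEAD2 and TEAD3 were not called.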

How the data were processed

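The authors deposited 1 table of FPKM for 48162 genes, with symbol, type, strand, coordinates and length; the submitters' processing notes name CASAVA 1.8, STAR and hg19, and the counting tool is not given in the sources used here. The library is poly-T selected mRNA. Columns were matched to samples by condition and replicate number. The study's source data mark some genes as up whose values are lower in its MGH-CP1 columns; every direction here follows the names of the deposited columns. FPKM multiplied by length gave whole fragments (tolerance 0.01), used for depth and for 2 alternatives; precision is limited by 2 libraries per condition.

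Genes with a mean of at least 1 FPKM over the 4 libraries were fitted on log2(FPKM + 1) with limma 3.58.1 (lmFit, eBayes with trend, 5.97 prior degrees of freedom) in R 4.3.3, two-sided, with Benjamini-Hochberg adjustment and a threshold of 0.05. Fold changes on this scale understate those of low genes. The script was tested on simulated data. scipy 1.17.1 and pandas 2.3.3 were used for checks.

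The genes and lists were chosen with earlier results of these data known. Values per library are given for called enzymes with a log2 difference of at least 0.3, for all enzymes outside the ZDHHC family and for the 3 ZDHHC genes of highest mean; in the other lists, up to 3 called genes each way are named, and any others were chosen after their values were seen. The 16 alternatives were pseudocounts of 0.1 and 0.5, no filter, a mean of at least 5 FPKM, median-ratio and quantile scaling, a replicate block, no variance trend, unshared variance, each library left out, voom on recovered fragments, thinning to equal depth, and totals without mitochondrial genes. Replicate numbers are not stated to mark a shared day or culture.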

Additional observations from a re-analysis of the deposited data

How the results depend on the processing

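No call of the 15 enzymes changed direction under the 16 alternatives: of 240 values, 193 kept direction and call and 47 kept the direction without the call. LYPLA2, NMT2, PORCN, PPT2 and ZDHHC6 were called in 15 of 16. With variance not shared between genes, limma called 0 enzymes higher and 0 lower (13 at an unadjusted p under 0.05). It called 0 and 0 genes of the other 4 lists (20 at an unadjusted p under 0.05), and 9 higher and 4 lower of all genes. Limma voom called 7 enzymes higher and 9 lower, 59.3% of the enzymes against 54.6% of all genes. Thinned to equal depth, 7 enzymes were higher and 8 lower, 55.6% of the enzymes against 49.5% of all genes. With totals without mitochondrial genes, 8 were higher and 8 lower, 59.3% against 50.6%. Without a filter on low values, 3 enzymes were higher and 6 lower (29.03% of 31), 2280 of all genes were higher and 1844 lower (16.6% of 24878), and the enzymes' median was 0.0521. That median was -0.0747 with median-ratio scaling, -0.0873 with quantile normalization and -0.0672 to 0.0336 with 1 library left out, so its sign is not settled. The median of all genes tested moved as well, from 0.0142 to -0.0340 with median-ratio scaling and to -0.0266 with quantile normalization. Leaving out 1 library gave 5 to 7 enzymes higher and 2 to 7 lower. It also turned the sign of 4 uncalled enzymes: HHAT ranged from -0.0378 to 0.345, ZDHHC4 from -0.0400 to 0.144, ABHD13 from -0.0802 to 0.0336 and ZDHHC13 from -0.101 to 0.0391 (0.0391 without vehicle control replicate 1, 0.0098 without MGH-CP1 replicate 2). With 1 library left in an arm, that library was assumed to vary like the others.

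With the replicate number as a block, 8 enzymes were higher and 8 lower, 59.3% of the enzymes against 54.0% of all genes. The replicate 1 minus replicate 2 differences of the conditions correlated at 0.0777 across genes, so the numbers were not taken as pairs.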
